A study of Mus musculus with 10 samples.

Results

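The subject is 7 genes that encode growth factor and chemokine ligands of macrophages and their receptors: the ligands Csf1, Il34 and Cx3cl1, and the receptor genes Csf1r, Cx3cr1, Csf2ra and Csf2rb. They were taken by symbol from the 24541 gene symbols of the deposited table, each symbol with the sum of its transcripts, and all 7 were found and passed the filter on low counts. The RNA came from 10 libraries of cells that magnetic beads against F4/80, the macrophage surface protein encoded by Adgre1, had held back from digested kidneys. The mutant group, 4 libraries, carried C105F on 1 Umod allele, a point mutation put in by CRISPR editing of C57BL/6J embryos, and 6 libraries came from wild-type littermates. All mice were 12 to 16 weeks old and of C57BL/6 background, and the study asked whether altered macrophage expression links the uptake of uromodulin aggregates to disease in such mice. The mutation is in the germline and uromodulin is made by tubule cells of the thick ascending limb, so macrophages carry the allele but are not the protein's usual source, and the libraries also held RNA of such tubule cells.

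CSF1 and IL-34 are secreted factors that share little sequence but bind the same receptor tyrosine kinase, CSF1R, which tissue macrophages need to survive and divide. Fractalkine, the product of Cx3cl1, is made as a membrane-anchored chemokine on epithelium and endothelium, can be shed from there, and acts on CX3CR1, a receptor that kidney mononuclear phagocytes carry in abundance. GM-CSF acts through a receptor of an alpha chain, encoded by Csf2ra, and the common beta chain, encoded by Csf2rb, which the IL-3 and IL-5 receptors also use.

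Library totals lay between 45380415 and 73643200 estimated counts. The libraries differed more in their macrophage content than in depth. Adgre1 had 58.2, 58.6, 229 and 819 CPM (counts scaled for depth by TMM) in mutant replicates 1, 2, 4 and 5, against 13.96 to 406 CPM with a median of 82.8 CPM in wild type. In both groups it rose with replicate number, in wild type from 13.96 CPM in replicate 1 to 406 CPM in replicate 6. The labels do not say what the numbers stand for. The summed level of 15 resident macrophage markers ran from 992 to 11995 CPM in mutants and from 336 to 5064 CPM in wild type. The 12 proximal tubule markers summed to 40869 to 84709 CPM in mutants and 43996 to 99013 CPM in wild type, and stood above the macrophage sum in each of the 10 libraries, by 3.41 times in mutant replicate 5 and by 295 times in wild-type replicate 1. The labelled cell type was thus present in each library, mixed with RNA of tubule cells. Because these are bulk samples, fewer cells of a type and less RNA per cell cannot be told apart in any value given here.

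Promoters of 4 members were at hand in the RefSeq table of GRCm38.p6, the same assembly as the mm10 of the deposited coordinates. They are shown because the 2 receptor genes among them followed Adgre1 closely and the 2 ligand genes did so weakly or not at all, as the results describe. Each window runs from 250 bases before to 50 bases after the annotated start, read 5′ to 3′ on the gene's strand, and capitals mark GAGGAA, the core bound by the macrophage factor PU.1, or its reverse complement. The receptor promoters are given first and the ligand promoters after them.
Cx3cr1, chr9:120068247-120068546, minus strand: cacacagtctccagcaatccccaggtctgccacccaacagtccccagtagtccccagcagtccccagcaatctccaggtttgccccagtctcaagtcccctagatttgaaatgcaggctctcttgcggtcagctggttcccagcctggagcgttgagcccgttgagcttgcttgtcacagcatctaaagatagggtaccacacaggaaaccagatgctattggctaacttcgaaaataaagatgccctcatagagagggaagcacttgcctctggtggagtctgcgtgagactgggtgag
Csf2ra, chr19:61228369-61228668, minus strand: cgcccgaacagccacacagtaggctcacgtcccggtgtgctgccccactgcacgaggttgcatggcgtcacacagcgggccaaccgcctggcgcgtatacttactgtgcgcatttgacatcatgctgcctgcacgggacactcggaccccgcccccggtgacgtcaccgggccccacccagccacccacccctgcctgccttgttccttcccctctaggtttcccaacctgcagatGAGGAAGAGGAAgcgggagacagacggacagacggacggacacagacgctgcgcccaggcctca
Csf1, chr3:107760420-107760719, minus strand: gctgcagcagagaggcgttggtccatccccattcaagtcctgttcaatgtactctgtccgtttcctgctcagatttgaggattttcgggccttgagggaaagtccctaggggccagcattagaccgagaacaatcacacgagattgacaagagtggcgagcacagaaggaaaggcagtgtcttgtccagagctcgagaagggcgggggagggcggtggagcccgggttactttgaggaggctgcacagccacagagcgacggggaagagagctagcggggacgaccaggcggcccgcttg
Cx3cl1, chr8:94771930-94772229, plus strand: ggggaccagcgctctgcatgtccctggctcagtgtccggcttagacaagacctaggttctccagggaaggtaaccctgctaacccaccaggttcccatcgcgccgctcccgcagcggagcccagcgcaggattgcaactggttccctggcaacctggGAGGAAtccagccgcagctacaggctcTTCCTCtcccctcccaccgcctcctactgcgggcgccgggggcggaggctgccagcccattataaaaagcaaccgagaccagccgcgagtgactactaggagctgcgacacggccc
The letters GAGGAA occurred on either strand in 28.3% of the 32851 promoter windows of the table. They occurred at 2 adjoining places in the Csf2ra window, starting at offsets of -14 and -8 from the annotated start, and at 2 places in the Cx3cl1 window, at offsets of -93 and -66. They were not in the Cx3cr1 or Csf1 window. TGANTCA, the AP-1 motif, occurred in 7.81% of all windows on either strand and in 0 of these 4, so that no match of one motif overlapped the other. These matches describe letters in a window and say nothing of a factor's binding.

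Receptor RNA was the more abundant side of each pair when all libraries were averaged. In FPKM, a scale of fragments per kilobase of transcript and per unit of depth on which different genes can be compared, Csf1r averaged 102 ± 121 FPKM in mutants (SD, n = 4) and 51.2 ± 54.4 FPKM in wild type (SD, n = 6). Cx3cr1 averaged 52.9 ± 60.5 FPKM in mutants and 26.9 ± 31.7 FPKM in wild type, with the same numbers of libraries. Cx3cl1 came next with 17.9 ± 2.45 FPKM in mutants and 15.8 ± 2.25 FPKM in wild type, followed by Il34 with 14.9 ± 2.95 FPKM in mutants and 12.4 ± 5.40 FPKM in wild type. Csf2ra averaged 9.03 ± 8.07 FPKM in mutants and 7.14 ± 6.08 FPKM in wild type. The lowest levels were those of Csf1, at 3.002 ± 1.25 FPKM in mutants and 2.81 ± 1.46 FPKM in wild type, and of Csf2rb, at 2.597 ± 2.51 FPKM in mutants and 1.22 ± 1.27 FPKM in wild type. The order of the means was the same in both groups, but only Csf1r above Cx3cr1 held in all 10 libraries. Cx3cr1 exceeded Cx3cl1 in 5 of 10, Cx3cl1 exceeded Il34 in 8, Il34 exceeded Csf2ra in 7, Csf2ra exceeded Csf1 in 9 and Csf1 exceeded Csf2rb in 9. For each of these pairs of neighbours the means lay closer together than the spread between libraries of one or both genes.

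In the fit over all 10 libraries none of the 7 genes passed the test of mutant against wild-type libraries across all genes. With edgeR's quasi-likelihood test on 15123 genes, 0 of 7 members passed a Benjamini-Hochberg adjusted p of 0.05, where 0.198% of all genes tested passed (0.179% higher and 0.0198% lower in mutants), and 0 of 7 had an unadjusted p under 0.05. DESeq2 and limma likewise called 0 members. With replicate number as a block, over the 8 libraries whose numbers occur in both groups, edgeR called 1 member, Cx3cr1, beside 217 of 14861 genes tested. All 7 fold changes were positive, with ligands between 0.10 and 0.24 and receptors between 0.33 and 1.11 on the log2 scale. The median of all genes tested was 0.01, with the middle 90% between -0.55 and 0.83. In the plot of CPM by group, the libraries of both groups overlap for each gene.

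**Figure D1:**
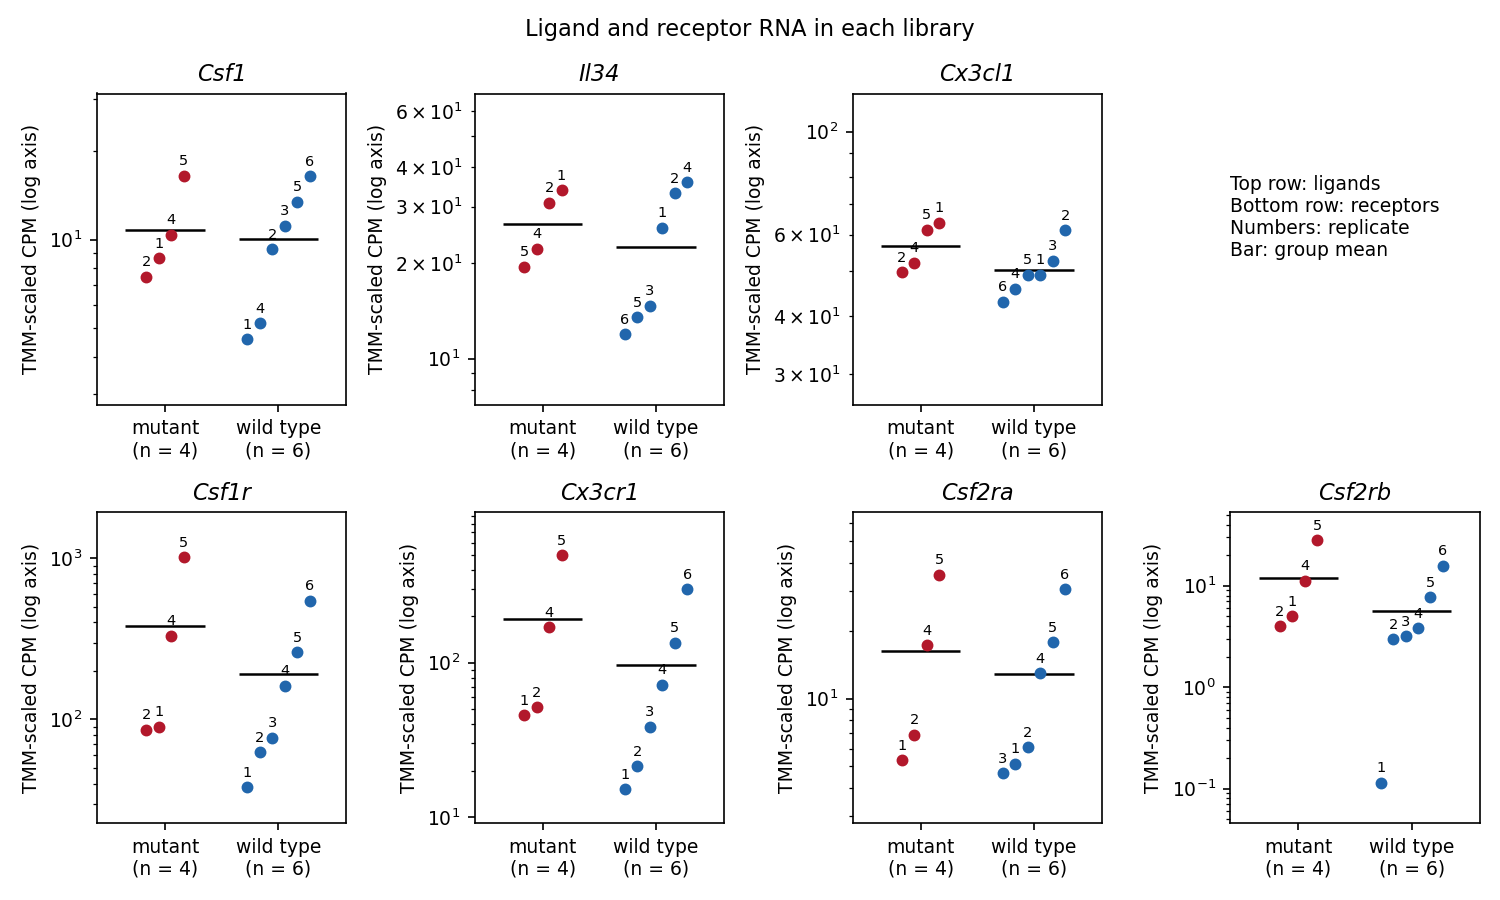
TMM-scaled CPM on a log axis of the 3 ligand genes (top) and 4 receptor genes (bottom) in each mutant library (left) and wild-type library (right), with replicate numbers beside the points and a bar at the group mean. The receptors other than Csf2rb spread over 7.60 to 32.9 times between libraries and Cx3cl1 over 1.48 times, and the groups overlap in each panel. Csf2rb spread over 245 times, with 6 counts in its lowest library, wild-type replicate 1.

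Csf1 (gene 12977, chromosome 3, 107741048 to 107760469), which encodes the macrophage colony-stimulating factor M-CSF, had 8.65, 7.48, 10.4 and 16.5 CPM in mutant replicates 1, 2, 4 and 5. Wild-type libraries ran from 4.59 to 16.4 CPM with a median of 10.2 CPM. The mutant values lay inside the wild-type range except that of replicate 5, which was level with the highest wild-type library. The fitted log2 fold change of 0.10 had an SE of 0.37 (edgeR, adjusted p = 0.988). It turned to -0.18 without mutant replicate 5 and to -0.06 and -0.04 without wild-type replicates 1 and 4. On the transcript with the highest total over all libraries it was -0.02.

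Il34 (gene 76527, chromosome 8, 110741829 to 110805924) encodes a factor best known for its action on microglia and skin macrophages, and kidney tubules are among its sources. It had 33.7, 30.9, 22.2 and 19.5 CPM in mutant replicates 1, 2, 4 and 5. The wild-type values were 12.0 to 35.8 CPM with a median of 20.2 CPM. Mutant replicates 1 and 2, which had the least Adgre1 of the mutants, had the most Il34 of them. On the log2 scale mutants were 0.24 higher with an SE of 0.34 (edgeR, adjusted p = 0.962).

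Cx3cl1 (gene 20312, chromosome 8, 94772180 to 94782426) was the steadiest of the 7, with 63.6, 49.8, 52.2 and 61.5 CPM in mutant replicates 1, 2, 4 and 5. Wild-type mice had 43.0 to 61.3 CPM with a median of 49.2 CPM. The highest library was 1.48 times the lowest. Mutant replicates 1 and 5 lay above the highest wild-type library, and the log2 fold change was 0.18 with an SE of 0.12 (edgeR, adjusted p = 0.959).

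Csf1r (gene 12978, chromosome 18, 61105572 to 61131139), the receptor of CSF1 and IL-34, had 90.2, 86.5, 329.9 and 1017.5 CPM in mutant replicates 1, 2, 4 and 5. The 6 wild-type libraries had 37.9 to 543 CPM with a median of 119 CPM. Mutant replicate 5 alone stood above the wild-type range, and replicates 1 and 2 lay under the wild-type median. Between the groups it differed by 1.00 on the log2 scale, with an SE of 0.86 (edgeR, adjusted p = 0.959).

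Cx3cr1 (gene 13051, chromosome 9, 120048683 to 120068296), the fractalkine receptor, had 45.9, 51.4, 169 and 500.03 CPM in mutant replicates 1, 2, 4 and 5. Wild-type levels were 15.2 to 299 CPM with a median of 55.2 CPM. The libraries stood in almost the same order as for Csf1r, and again only mutant replicate 5 was above the wild-type range. Its log2 fold change was 0.98, with an SE of 0.91 (edgeR, adjusted p = 0.959).

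Csf2ra (gene 12982, chromosome 19, 61224402 to 61228418), the ligand-specific chain of the GM-CSF receptor, had 5.33, 6.90, 17.3 and 35.4 CPM in mutant replicates 1, 2, 4 and 5. Among wild-type libraries it had 4.66 to 30.6 CPM with a median of 9.55 CPM. Only mutant replicate 5 exceeded the wild-type range, and the log2 fold change, 0.33 with an SE of 0.66, was the smallest among the receptors (edgeR, adjusted p = 0.972).

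Csf2rb (gene 12983, chromosome 15, 78325990 to 78351001), the shared signalling chain, had 4.98, 3.98, 11.2 and 28.0 CPM in mutant replicates 1, 2, 4 and 5. The wild-type range was 0.114 to 15.7 CPM with a median of 3.49 CPM. The lowest value was that of wild-type replicate 1, with 6 counts, where the next lowest library had 186. With an SE of 0.91 its log2 fold change was 1.11 (edgeR, adjusted p = 0.959), and 0.84 without wild-type replicate 1.

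Csf2rb has a near-identical neighbour, Csf2rb2 (gene 12984, chromosome 15, 78282508 to 78305721), which in mice encodes a beta chain used by the IL-3 receptor alone. No source used here says how reads were shared between such copies, so their separate values are uncertain. Csf2rb held 50.7% to 65.8% of the counts of both genes in mutants and 57.5% to 68.75% in 5 wild-type libraries, but 5.88% in wild-type replicate 1. The mutant mean of Csf2rb2 was 7.97 ± 6.40 CPM (SD over 4 libraries) beside a wild-type mean of 3.30 ± 2.63 CPM (SD over 6). Its log2 fold change, 1.27 with an SE of 0.57, did not pass either (edgeR, adjusted p = 0.840). The sum of both genes, an alternative chosen after seeing the data, had a log2 fold change of 1.17.

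In the fit over all 10 libraries the directions of 4 members rested on mutant replicate 5, the library with the most Adgre1. Without it the log2 fold change was -0.18 for Csf1r, -0.12 for Cx3cr1, -0.39 for Csf2ra and -0.18 for Csf1, against 0.26 for Csf2rb. Without wild-type replicate 6, the wild-type library with the most Adgre1, the same value was 1.66 for Csf1r, 1.77 for Cx3cr1, 0.80 for Csf2ra and 1.76 for Csf2rb. With log2 CPM of Adgre1 as a covariate the fold changes of the receptors were -0.15 (SE 0.17) for Csf1r, -0.00046 (SE 0.15) for Cx3cr1, -0.44 (SE 0.25) for Csf2ra and 0.36 (SE 0.43) for Csf2rb. Those of the ligands were -0.21 (SE 0.25) for Csf1, 0.51 (SE 0.28) for Il34 and 0.22 (SE 0.12) for Cx3cl1. The edgeR adjusted p with this covariate was between 0.465 for Il34 and 0.999 for Cx3cr1, and 0 members passed. The standard errors of Csf1r and Cx3cr1 were the ones that shrank most.

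**Figure D2:**
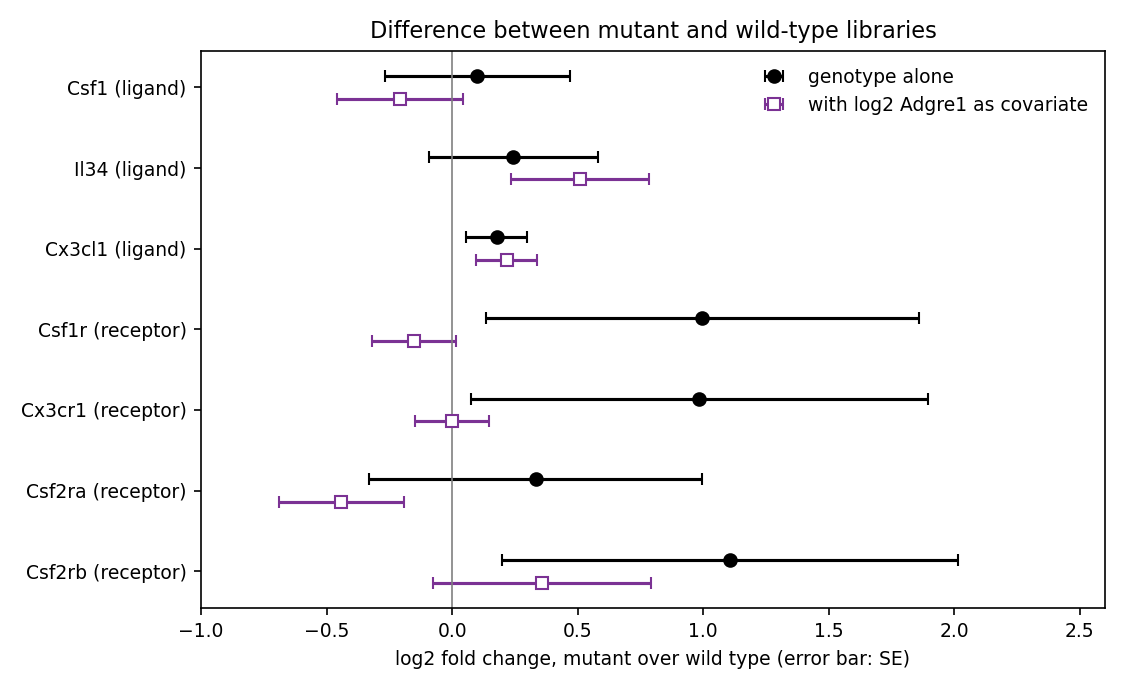
Log2 fold change of mutant over wild-type libraries with its SE for each gene, from the fit with genotype alone (black circles) and from the fit with log2 CPM of Adgre1 as covariate (open squares). The Csf1r value is 1.00 in the first fit and -0.15 in the second, and no gene passed the test in either.

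The receptors followed the level of F4/80 RNA, and the ligands did not follow it as a group. Because Adgre1 rose with replicate number in both groups, a trend along Adgre1 within a group cannot be told apart from one along replicate number. In a fit of each gene on log2 CPM of Adgre1 with genotype as covariate, 36% of the 15122 genes tested passed an edgeR adjusted p of 0.05 in either direction and 19.7% passed with a positive slope. All 4 receptors rose with Adgre1, and of the 3 ligands Csf1 alone did. A slope of 1 on this log2 scale would mean that a gene doubles when Adgre1 doubles. The slope was 0.91 for Cx3cr1 (SE 0.04, edgeR adjusted p = 7.21e-08), 0.85 for Csf1r (SE 0.05, adjusted p = 1.79e-07), 0.82 for Csf2rb (SE 0.14, adjusted p = 0.00111) and 0.60 for Csf2ra (SE 0.07, adjusted p = 6.65e-05). For Csf2rb it was 0.68 without wild-type replicate 1 and 0.65 for the sum with Csf2rb2.

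Among the ligands, Csf1 had a slope of 0.28 (SE 0.07, edgeR adjusted p = 0.0106). Within the 6 wild-type libraries it was 0.30, with an edgeR adjusted p of 0.102 that no longer passed. Il34 had a slope of -0.23 (SE 0.08, edgeR adjusted p = 0.0542), which did not pass with all libraries but did without wild-type replicate 3 (adjusted p = 0.0437) or 4 (adjusted p = 0.00355). Cx3cl1 had a slope of -0.03 (SE 0.04, adjusted p = 0.523). The median slope of all genes was 0.01, with the middle 90% between -0.23 and 0.67, so that 2.103% of genes had a higher slope than Cx3cr1, 2.82% than Csf1r and 94.6% than Il34.

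**Figure D3:**
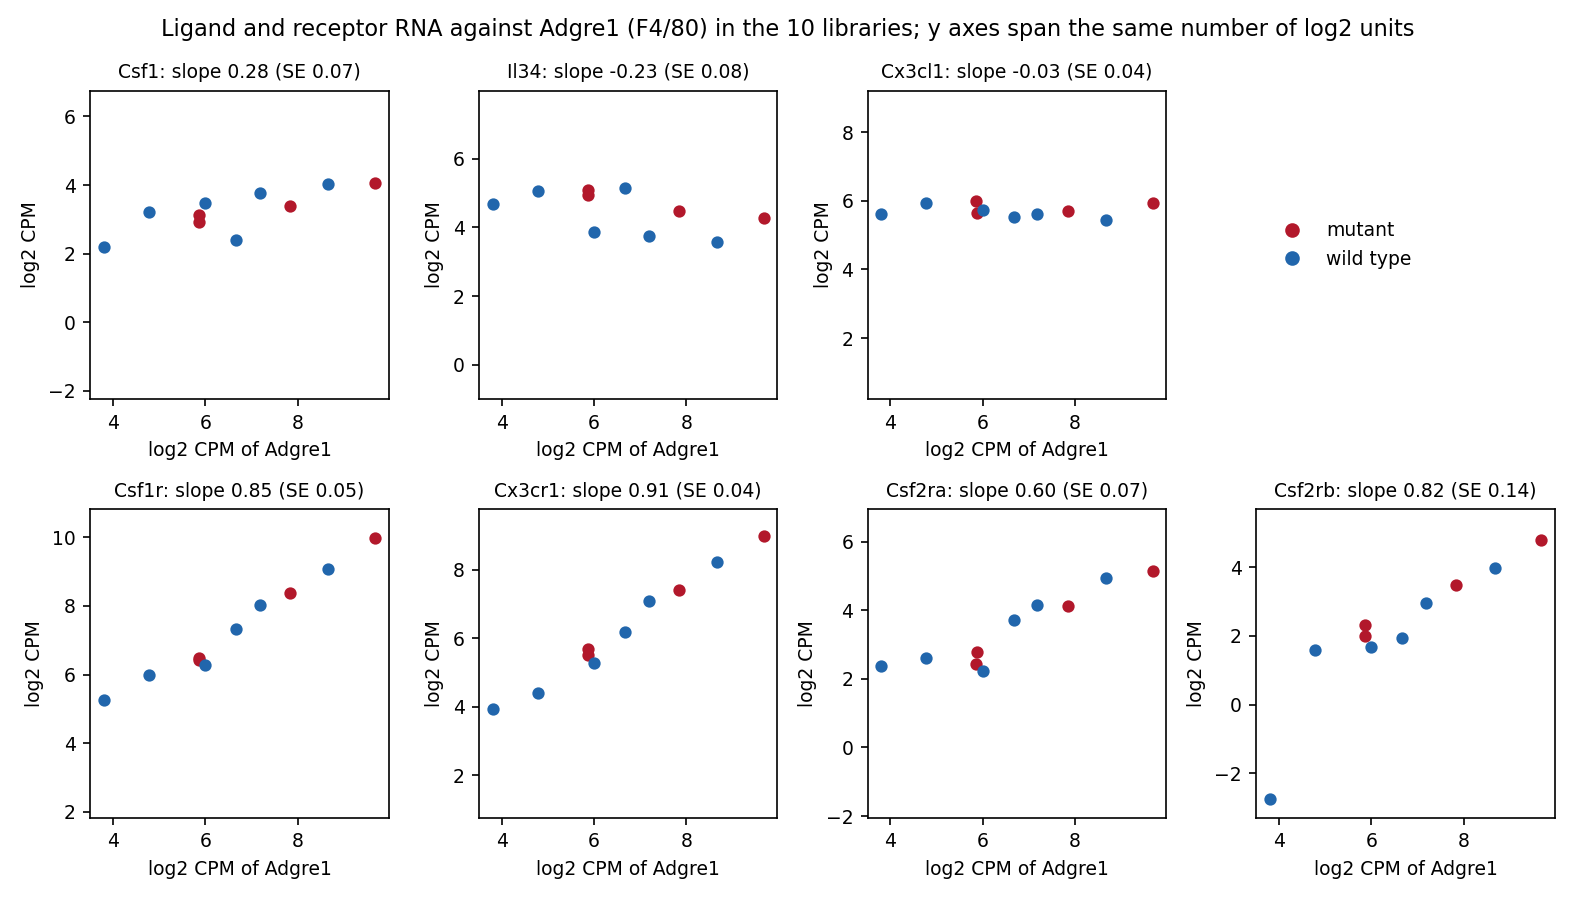
Log2 CPM of each ligand (top) and receptor (bottom) against log2 CPM of Adgre1 in the 4 mutant and 6 wild-type libraries, with y axes that span the same number of log2 units. The receptor points climb with slopes of 0.60 to 0.91, and the slope of Cx3cl1 is -0.03.

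Marker lists were counted in the same fit, beside the 19.7% of all genes that rose and the 16.2% that fell. All 14 resident macrophage markers other than Adgre1 rose with Adgre1, as did 6 of 8 monocyte markers, 6 of 8 dendritic cell markers, 4 of 9 tested T, NK and innate lymphoid markers, 5 of 10 endothelial markers, 5 of 10 fibroblast and smooth muscle markers, and all 6 podocyte markers. Closer to those shares were granulocyte and mast cell markers, of which 2 of 7 tested rose, B cell markers, of which 1 of 6 rose, and proximal tubule markers. Of the 12 proximal tubule markers 2 fell and 0 rose, 4 of the 10 for ascending limb and distal tubule fell, and of 10 collecting duct markers 0 passed. Between genotypes the ascending limb and distal tubule markers, which include the edited gene Umod, summed to 3158 to 9384 CPM in mutants and 11412 to 24930 CPM in wild type. Of these 10 genes 1 passed as lower in mutants, beside 0.0198% of all genes. Granulocyte and mast cell markers, of interest because such cells also use the common beta chain, summed to 0.479 to 5.28 CPM in mutants and 0.514 to 7.71 CPM in wild type, with Mpo, Elane, Camp and Prg2 at 0 in all libraries. Dendritic cell markers summed to 19.0 to 135 CPM in mutants and 9.37 to 132 CPM in wild type. Their part in the levels of the receptor genes was not tested.

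The ratio of ligand to receptor within a library, in which depth cancels, was compared for 3 pairs. The log2 ratio of Csf1 to Csf1r counts averaged -4.46 ± 1.23 in mutants (SD, n = 4) and -3.81 ± 1.08 in wild type (SD, n = 6), a difference of -0.65 (two-sided exact permutation p = 0.395). The log2 ratio of Il34 to Csf1r averaged -3.13 ± 2.07 in mutants and -2.64 ± 1.92 in wild type, a difference of -0.49 (exact permutation p = 0.729). That of Cx3cl1 to Cx3cr1 averaged -1.07 ± 1.596 in mutants and -0.20 ± 1.76 in wild type, a difference of -0.87 (exact permutation p = 0.443). Adjusted over the 3 pairs, these exact permutation p-values were 0.664, 0.729 and 0.664. The smallest p that 4 against 6 libraries allow is 0.00476. Each difference was smaller than the SD within either group, and that of Il34 to Csf1r was 0.37 without mutant replicate 5. Paired by the 4 shared replicate numbers, the differences were -0.70 for Csf1 to Csf1r, -1.14 for Il34 to Csf1r and -1.35 for Cx3cl1 to Cx3cr1. Each had an exact sign-flip permutation p of 0.125, the smallest that 4 numbers allow.

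Per transcript length, Csf1 lay below Csf1r in each of the 10 libraries. Csf1 FPKM over Csf1r FPKM was 0.110, 0.0901, 0.0333 and 0.0172 in mutant replicates 1, 2, 4 and 5, against 0.0323 to 0.165 in wild type. Il34 exceeded its receptor in 0 of 4 mutant and in 2 of 6 wild-type libraries. Il34 FPKM over Csf1r FPKM was 0.825, 0.791, 0.148 and 0.0422 in mutant replicates 1, 2, 4 and 5, while wild-type replicates 1 and 2 had 1.51 and 1.16 and wild-type replicate 6 had 0.0487. Cx3cl1 exceeded Cx3cr1 in 2 of 4 mutant and 3 of 6 wild-type libraries. Its FPKM ratio was 1.66, 1.16, 0.368 and 0.147 in mutant replicates 1, 2, 4 and 5 and lay between 0.171 and 3.87 in wild type. The side that was more abundant in the fractalkine pair thus differed between libraries of the same genotype.

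All 3 ratios fell as Adgre1 rose over the 10 libraries. Within each group Adgre1 rose with replicate number, so a trend along one cannot be told apart from a trend along the other. For Cx3cl1 to Cx3cr1 Pearson r was -0.98 (permutation p = 1e-05, which is as small as 100000 resamples allow; adjusted over the 3 pairs 3e-05) and Spearman rho was -0.99 (permutation p = 3e-05, adjusted 4.5e-05). For Il34 to Csf1r r was -0.95 (permutation p = 2e-05, adjusted 3e-05) and rho was -0.98 (permutation p = 2e-05, adjusted 4.5e-05). For Csf1 to Csf1r r was -0.90 (permutation p = 0.00037, adjusted 0.00037) and rho was -0.89 (permutation p = 0.00116, adjusted 0.00116). Without the 2 libraries farthest from the median of Adgre1, mutant replicate 5 and wild-type replicate 1, r was -0.99 for Cx3cl1 to Cx3cr1, -0.95 for Il34 to Csf1r and -0.87 for Csf1 to Csf1r. Within the 6 wild-type libraries r was -0.98 (exact permutation p = 0.00139), -0.96 (exact permutation p = 0.00556) and -0.81 (exact permutation p = 0.0611) for the same pairs. The relation of Csf1 to Csf1r was not seen on the transcript of each gene with the highest total over all libraries (r = -0.0146, permutation p = 0.969). For Csf1 this was variant 1, which held 5 counts (2.07% of Csf1 counts) in wild-type replicate 1, the library with the least Adgre1. In mutant replicate 1 it held 53 counts (11.3%). The part of these low counts in the loss of r was not tested. These ratios use the same receptor counts as the slopes and are not independent of them.

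**Figure D4:**
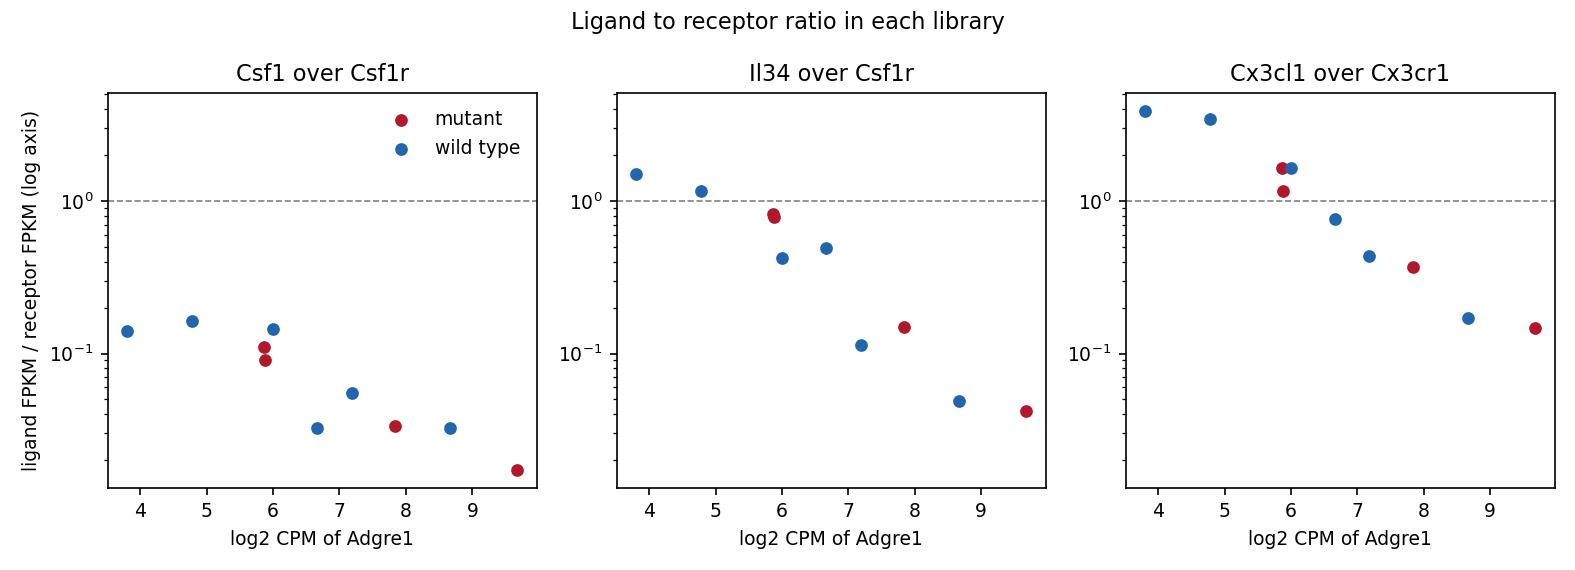
Ligand FPKM divided by receptor FPKM (log axis) against log2 CPM of Adgre1 in mutant and wild-type libraries for 3 pairs, with a dashed line at equal levels. Cx3cl1 over Cx3cr1 is 0.147 in mutant replicate 5, its lowest value, and 3.87 in wild-type replicate 1, its highest, and Csf1 over Csf1r stays below the line in each library.

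The genes whose log2 CPM ran most like each member over the 10 libraries were listed as a description. For Csf1r they were Inpp5d, the lipid phosphatase SHIP1 (r = 0.998), Lcp1, the leukocyte actin bundler L-plastin (r = 0.997), and Sdc3, a syndecan (r = 0.996). For Cx3cr1 they were Ly86, which encodes MD-1 (r = 0.998), and the complement genes C1qc and C1qb (r = 0.997 each). For Csf2ra they were the transcript 5830432E09Rik (r = 0.99), Rin3 (r = 0.98) and Rhoh, a GTPase of blood cells (r = 0.98). For Csf2rb they were the inhibitory receptor gene Cd200r1 (r = 0.99), Map4k1, a kinase of blood cells (r = 0.99), and Tirap, a Toll-like receptor adaptor (r = 0.98). The ligands had other partners: Purb, Kmt2e and Ecm1 for Csf1 (r = 0.97, 0.96 and 0.96), Polr3e, Slc1a4 and Polr3g for Il34 (r = 0.94, 0.94 and 0.93), and Dmrt2, Rnf2 and Irf2bpl for Cx3cl1 (r = 0.90, 0.87 and 0.86). They were the 3 highest of 15123 genes for each member, chosen on these 10 points, which share depth and macrophage content.

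The transcripts of Csf1 and Il34 were counted apart in the table. Csf1 has 3 transcripts, and variant 1 held 11.3%, 83.8%, 70.8% and 67.1% of its counts in mutant replicates 1, 2, 4 and 5. In wild type it held 62.3% to 88.5% in 5 libraries and 2.07% in replicate 1. Variant 2 held 88.7%, 0.00%, 17.4% and 21.5% of the counts in the same mutants and 97.9% in wild-type replicate 1, so that mutant replicate 1 and wild-type replicate 1 stood apart from the others in the same way. Il34 has 2 transcripts, and variant 1 held 85.7% to 92.1% of its counts in mutants and 81.0% to 99.8% in wild type. The other 5 members have 1 transcript each. No source used here gives the rule by which reads were shared among overlapping transcripts, so these shares are uncertain.

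The wider pathway was described with 6 lists that hold 79 genes besides the members, of which 71 were tested. The counts and medians given per list include the members it holds. In mutants against wild type 0 of 71 passed over all genes in edgeR, and 0 passed in DESeq2 or limma. In edgeR 5 had an unadjusted p under 0.05 (Cebpa, Csf2rb2, Sdc1, Stat3 and Trem2), beside 892 of all 15123 genes, which is a similar share. With replicate number as a block over 8 libraries 3 passed, Fes, Trem2 and Tyrobp, beside 217 of 14861 genes. Along Adgre1, 47 of the 71 rose and 2 fell, beside 19.7% of all genes that rose and 16.2% that fell.

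In the list of CSF1 and IL-34 ligands, receptors and binding proteins 6 of 7 genes were tested, with a median log2 fold change of 0.60. Trem2, a lipid-sensing receptor of macrophages, had a mutant mean of 11.9 ± 14.4 CPM (SD over 4 libraries) beside a wild-type mean of 2.54 ± 2.42 CPM (SD over 6). The log2 fold change was 2.22 with an SE of 0.89 (edgeR, adjusted p = 0.798). Sdc1, the proteoglycan syndecan-1 to which IL-34 can bind, was 0.33 higher in mutants on the log2 scale with an SE of 0.14 (edgeR, adjusted p = 0.835). Ptprz1, the other reported IL-34 receptor, had 39 counts in all libraries together and was not tested. Among 26 genes of CSF1R signalling and macrophage lineage factors, 23 fold changes were positive with a median of 0.47. The 3 with the smallest p were Cebpa at -0.80 (SE 0.33), Cebpb at 1.36 (SE 0.64) and Plcg2 at 0.56 (SE 0.34), the first 2 encoding C/EBP transcription factors and the last a phospholipase. With Adgre1, 20 of these 26 rose and 1 fell. Spi1, which encodes PU.1, and Tyrobp, the adaptor DAP12 of the CSF1 and IL-34 list, were picked after their values were seen and had slopes of 0.88 (SE 0.07) and 0.88 (SE 0.03).

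The fractalkine list had 9 genes, 6 positive fold changes and a median of 0.08. Besides the 2 members its smallest p was that of Itgav, an integrin chain, at -0.14 (SE 0.13). The sheddase genes Adam10 and Adam17, picked after their values were seen, had fold changes of 0.09 (SE 0.22) and -0.02 (SE 0.40) and rose with Adgre1 with slopes of 0.20 (SE 0.03) and 0.32 (SE 0.06). Of the list of GM-CSF, IL-3 and IL-5 ligands and receptors 5 of 8 genes were tested, with a median of 0.80. The ligand genes Csf2, Il3 and Il5 had 0 counts in all 10 libraries, which allows levels of up to 0.0407 to 0.0661 CPM, without TMM scaling, in single libraries (3 counts, counting error only). GM-CSF receptor RNA was thus measured without any detected RNA of its ligand. Il3ra, the alpha chain of the IL-3 receptor, was 0.80 higher in mutants on the log2 scale, with an SE of 0.60 (edgeR, adjusted p = 0.959), and had a slope of 0.53 (SE 0.07) with Adgre1.

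The list of GM-CSF receptor signalling and targets had 16 genes, 11 positive fold changes and a median of 0.39, with 9 genes that rose and 1 that fell along Adgre1. Its smallest p was that of Stat3, a transcription factor of many cytokine receptors, with a mutant mean of 88.6 ± 41.7 CPM (SD over 4 libraries) beside a wild-type mean of 53.6 ± 9.83 CPM (SD over 6). Its log2 fold change of 0.72 had an SE of 0.25 (edgeR, adjusted p = 0.701). Socs3, a feedback inhibitor of cytokine signalling, had 0.91 (SE 0.44) and Bcl2l1, which encodes Bcl-xL, had -0.20 (SE 0.12). Of 20 other myeloid growth factor genes 16 were tested, with a median of 0.12 and 10 that rose along Adgre1. Csf3r, the G-CSF receptor gene, had a log2 fold change of 1.34 (SE 0.86), Il6ra, the IL-6 receptor chain, 1.05 (SE 0.90) and Tnfrsf11a, which encodes RANK, 0.82 (SE 0.58). None of these passed the test.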

How the data were processed

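Per the file headers, the deposited table holds estimated counts and FPKM per library, a row being a RefSeq transcript. The submitters' processing notes name build mm10 and the tools Bowtie2 2.3.4.1, DESeq2, HISAT2 2.1.0, StringTie 1.3.4d and Trimmomatic 0.38, with no roles. Per the labels' protocols, kidneys were digested for 30 minutes, and a directional kit with oligo-dT beads was used on 75 ng of RNA. The deposited estimated counts are whole numbers not scaled for depth; the deposited FPKM values were scaled by the authors for transcript length and depth.

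Counts were summed per symbol. Library totals, 45380415 to 73643200 counts, leave counting error small beside the spread between libraries for all members but Csf2rb in wild-type replicate 1. The series text gives 10 mice for 10 libraries. Between libraries of a group the chi-square per gene was at least 73.04, so none was a duplicate. Genes were filtered with filterByExpr, scaled by TMM and tested by robust quasi-likelihood fits (edgeR 4.0.16, R 4.3.3), either for genotype or for log2 CPM of Adgre1 (prior count 2) with genotype as covariate. A call is a Benjamini-Hochberg adjusted p under 0.05 over all genes. Each SE is the fold change divided by the root of F. Ratios used counts plus 0.5 and exact permutation tests over 210 assignments. DESeq2 1.42.0 and limma 3.58.1 were alternatives. The edgeR tests were also run on simulated counts. Genes there varied independently, so that run gives no error rate for libraries that share a gradient of Adgre1. Named genes are the members, the 3 genes of smallest p in each list and the 3 genes most like each member by Pearson r. The members and lists were chosen with earlier results of these data known. Figures were drawn with matplotlib 3.10.9.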

Additional observations from a re-analysis of the deposited data

Results flagged for a closer look

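In wild-type replicate 1, 3 shares of estimated counts stood far from those of the other 5 wild-type libraries. Csf2rb held 5.88% of the counts of Csf2rb and Csf2rb2 together, against 57.5% to 68.75% in the others. Csf1 variant 1 held 2.07% of Csf1 counts, against 62.3% to 88.5%, and Csf1 variant 2 held 97.9%, against 0.00% to 23.8%. The same library had the lowest Adgre1, at 13.96 CPM. Dixon's criterion was applied to 32 groups of values, and chance flags about 1 in 20 groups. Both Csf1 flags come from the same split of counts.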

How the results depend on the processing

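Of 420 values under other settings, 381 kept their direction and their side of the threshold, or a count within 1.5 times. A value that passed in neither setting was counted as kept if its sign held. No fold change of a member and no ratio difference between the groups passed in the main tests. For those values the total is no measure of how firm they are. The count of genes called between mutant and wild type, 30, was 136 in DESeq2, 17 on the most abundant transcript, 51 with Adgre1 as covariate and 14 to 24 when 1 library was left out (14 without mutant replicate 1, 19 without mutant replicate 5). Fold changes that turned were, with Adgre1 as covariate, -0.21 for Csf1, -0.15 for Csf1r, -0.00046 for Cx3cr1 and -0.44 for Csf2ra, and -0.0198 for Csf1 on 1 transcript. Leaving out 1 library gave -0.18 to 0.30 for Csf1, -0.18 to 1.66 for Csf1r, -0.12 to 1.77 for Cx3cr1 and -0.39 to 0.80 for Csf2ra, and -1.06 to 0.37 for the log2 ratio of Il34 to Csf1r between the groups. The 5438 genes that followed Adgre1 were 1772 in wild type alone, where 3 members passed (Csf1r, Cx3cr1 and Csf2ra; Csf2rb did not pass the filter there), and 3477 to 5546 without 1 library (3477 without mutant replicate 5). The correlation of the Csf1 to Csf1r ratio with Adgre1 was -0.0146 on 1 transcript and -0.81 in wild type alone. The cause of these shifts was not tested.

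Replicate numbers 1, 2, 4 and 5 occur in both groups, and no label says what they stand for. Deviations of same-numbered libraries correlated at 0.43, 0.28, 0.02 and 0.44, and of these only number 1 correlated best with its own number. The numbers were not taken as pairs in the main fits. Adgre1 rose with the number in both groups, however, so this check does not show that same-numbered libraries were unrelated. With a replicate block over these 8 libraries, 217 genes were called between the groups, with 1 member, Cx3cr1 (log2 fold change 1.5004, edgeR adjusted p = 0.0108), and 3 other pathway genes, Fes, Trem2 and Tyrobp; with no replicate block the 8 libraries gave a log2 fold change of -0.024 for Il34. Along Adgre1 the block left 0 genes and 0 members called in edgeR. Terms for the 4 numbers, genotype and Adgre1 left few degrees of freedom in 8 libraries. The lack of calls thus cannot show that a relation was lost. Receptor slopes stayed positive, at 0.82 (SE 0.25) for Csf1r, 0.44 (SE 0.19) for Cx3cr1 and 0.34 (SE 0.33) for Csf2ra. That of Csf2rb was also positive, with the widest SE of all members. The ligand slopes were 0.15 (SE 0.44) for Csf1, 0.70 (SE 0.26) for Il34 and 0.33 (SE 0.21) for Cx3cl1. For the ratios between the groups the replicate block gave -0.70 for Csf1 to Csf1r, -1.14 for Il34 to Csf1r and -1.35 for Cx3cl1 to Cx3cr1, each with an exact sign-flip permutation p of 0.125, the smallest that 4 numbers allow.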
